A study of Mus musculus with 2 samples.

Results

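The 38 genes described here encode the enzymes and transporters of glycolysis and the oxygen-sensing pathway of the hypoxia-inducible factors (HIF). They were chosen by name, with earlier results of these data known. The set holds 24 genes of the glycolytic route from glucose uptake to lactate export, 6 regulators of HIF and 8 further HIF target genes. Of these, 36 had a probe set that the platform annotation names: 22 of 24 of the route, 6 of 6 regulators and 8 of 8 targets. Each of the 36 had 1 probe set. Gpi1 (glucose-6-phosphate isomerase) and Eno1 (the widely expressed enolase) are on no probe set named here and were not analysed. The array named 19505 genes in all, and 10162 of them were detected, meaning that the brighter of their 2 values reached a log2 value of 5.89, the median of all named probe sets. All 36 measured members passed this rule, which is not a measured background.

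The RNA came from B16F10, a mouse melanoma cell line, on 2 arrays. The NRF3 cells had been transfected with an NRF3 expression plasmid (NRF3 is the transcription factor encoded by Nfe2l3), and the GFP cells with a plasmid for green fluorescent protein. Both plasmids were delivered with a puromycin resistance vector, both populations were selected with puromycin, and both then received forskolin, which activates adenylate cyclase, for 5 days before total RNA was taken. No array without forskolin was analysed here. The labels do not give the plasmid promoter, the species of the NRF3 sequence, the oxygen tension, or whether the stable cells were clones or pools. Each group had 1 array, so the differences have no error and no test, and each compares these 2 RNA samples.

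Nfe2l3, the overexpressed gene, was higher on the array labelled NRF3, at 10.1, against 6.04 on the GFP array. All 10 melanocyte markers were detected, between 10.3 and 18.9 on each array. Their summed level, which the brightest of them dominate, was 20.5 in log2 on both arrays. Of single markers 4 passed 1.5-fold: Trpm1 differed by -2.54, Tyr by 1.41, Mitf by 0.93 and Slc45a2 by 0.70. Of the named leukocyte markers 0 of 8 were detected, of fibroblast and endothelial markers 1 of 9 (Pdgfrb, at 5.79 on the NRF3 array and 6.02 on the GFP array), and of epithelial markers 0 of 8. The negative control rows of the array (identifiers containing neg) had medians of 6.37 on the NRF3 array and 6.12 on the GFP array, and upper quartiles of 7.85 and 7.52 on those arrays. A value under the median is called here indistinguishable from these rows, and one under the upper quartile is called dim. On both arrays 29 of the 36 members lay above the upper quartile, and 7 had a dim value: Slc2a3, Pfkfb4, Eno2, Slc16a3, Epas1, Egln3 and Ankrd37.

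Glycolysis splits glucose into pyruvate. Hexokinase and phosphofructokinase commit the sugar in the first, energy-consuming phase of the route. Aldolase then splits it into trioses, and the enzymes of the later steps convert these to pyruvate and regain ATP. Lactate dehydrogenase and the monocarboxylate transporters then dispose of pyruvate as lactate. HIF is a dimer of an alpha subunit (Hif1a or Epas1) and the constant subunit Arnt. When oxygen is ample, prolyl hydroxylases of the EGLN family mark the alpha subunit, and the VHL ubiquitin ligase sends it to the proteasome. When oxygen is short, the dimer binds DNA at a short core sequence and raises most glycolytic genes together with genes of angiogenesis, mitophagy and collagen modification. Much of this control acts on the HIF protein, which an RNA array does not measure. Melanoma cells are known for high glycolytic rates.

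The HIF core is ACGTG or GCGTG, and the windows of RefSeq (build GRCm38.p6) from 250 bases before to 50 after the annotated start were searched for it on both strands. A CACGTG counts once on each strand. Windows are shown for the 3 members with the highest and the 3 with the lowest differences, among those with a window, in that order. They show where the core lies in members of either direction. As 6 windows chosen by their differences, they cannot tell whether direction goes with the core. Ndrg1, Slc2a3, Epas1 and Bnip3l had no window, so Ndrg1, the member with the lowest difference, is not shown. Each is the first-listed window of its gene, 5′ to 3′ on the strand of the gene, and capitals mark the core. Egln1 lies at chr8:124949205-124949504, Kdm3a at chr6:71632868-71633167 and Bnip3 at chr7:138909457-138909756. Pfkfb3 lies at chr2:11553880-11554179, Hk1 at chr10:62379859-62380158 and Egln3 at chr12:54203825-54204124. All 6 are on the minus strand.
Egln1: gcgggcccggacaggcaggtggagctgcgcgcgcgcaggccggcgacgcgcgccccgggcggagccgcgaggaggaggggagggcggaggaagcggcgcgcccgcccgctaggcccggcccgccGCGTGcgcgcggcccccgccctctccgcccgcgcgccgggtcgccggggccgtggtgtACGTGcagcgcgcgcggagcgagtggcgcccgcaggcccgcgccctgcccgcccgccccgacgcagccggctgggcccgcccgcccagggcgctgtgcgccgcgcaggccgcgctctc
Kdm3a: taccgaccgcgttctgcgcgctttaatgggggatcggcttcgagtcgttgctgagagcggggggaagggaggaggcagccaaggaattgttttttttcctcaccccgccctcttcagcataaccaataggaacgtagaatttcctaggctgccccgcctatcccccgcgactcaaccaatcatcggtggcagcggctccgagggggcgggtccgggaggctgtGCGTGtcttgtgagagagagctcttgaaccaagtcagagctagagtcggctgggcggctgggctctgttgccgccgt
Bnip3: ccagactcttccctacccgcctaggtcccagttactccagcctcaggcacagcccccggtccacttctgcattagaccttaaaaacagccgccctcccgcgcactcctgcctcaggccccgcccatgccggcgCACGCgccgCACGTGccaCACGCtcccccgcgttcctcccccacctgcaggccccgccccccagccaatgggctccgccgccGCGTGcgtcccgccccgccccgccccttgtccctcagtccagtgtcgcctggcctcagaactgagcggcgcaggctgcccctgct
Pfkfb3: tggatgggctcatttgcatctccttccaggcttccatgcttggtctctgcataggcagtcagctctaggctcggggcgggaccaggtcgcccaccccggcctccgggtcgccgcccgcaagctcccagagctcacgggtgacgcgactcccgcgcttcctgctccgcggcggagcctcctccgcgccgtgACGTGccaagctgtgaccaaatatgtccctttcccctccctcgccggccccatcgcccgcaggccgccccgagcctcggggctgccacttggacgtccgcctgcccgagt
Hk1: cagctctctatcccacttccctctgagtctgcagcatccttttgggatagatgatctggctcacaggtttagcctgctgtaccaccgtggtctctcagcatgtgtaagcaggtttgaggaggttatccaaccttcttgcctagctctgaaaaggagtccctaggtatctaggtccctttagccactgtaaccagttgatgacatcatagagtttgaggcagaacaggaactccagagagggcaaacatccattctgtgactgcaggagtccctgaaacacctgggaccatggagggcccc
Egln3: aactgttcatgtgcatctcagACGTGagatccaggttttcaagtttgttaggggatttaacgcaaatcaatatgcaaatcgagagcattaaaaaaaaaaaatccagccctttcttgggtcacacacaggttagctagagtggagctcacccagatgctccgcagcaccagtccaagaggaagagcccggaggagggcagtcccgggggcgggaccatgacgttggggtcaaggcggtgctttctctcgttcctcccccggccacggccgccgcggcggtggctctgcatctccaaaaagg

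The core was found in members of both directions. The 3 higher members held 2 (Egln1), 1 (Kdm3a) and 5 (Bnip3) matches. Of the 3 lower members, Pfkfb3 and Egln3 held 1 each. The first-listed Hk1 window held 0 matches, and a second RefSeq window of Hk1 held 5. A second window of Pfkfb3 held 4, and the other 2 windows of Kdm3a held 0. Over all members with a window, 25 of 32 (78.1%) held the core in the first-listed window, against 64.3% of 8387 detected genes and 43.8% of 27025 genes in the table. Of the 9 members at least 1.5-fold lower, Ndrg1 and Slc2a3 had no window. By direction, 4 of 4 members at least 1.5-fold higher held the core, 6 of 7 that were as much lower, and 15 of 21 in between. Counting any window of a gene, these were 4 of 4, 7 of 7 and 18 of 21, and 29 of 32 members (90.6%) against 68.4% of detected genes. The antioxidant response element core to which NRF factors bind with small MAF proteins was searched as TGACNNNGC. In the first-listed window it was found in 3 of 32 members (9.38%): Slc16a1, Arnt and P4ha1. The shares there were 14.5% of detected genes and 12.5% of all genes. Counting any window, 5 of 32 members (15.6%) held it, against 16.5% of detected genes and 14% of all genes. By direction, any window gave 0 of 4 higher members, 1 of 7 lower members and 4 of 21 in between. In Slc16a1 its match overlaps a HIF core. These letters are descriptions of sequence and not shown binding sites.

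Over the whole set, 4 of 36 members lay at least 1.5-fold higher in NRF3 cells and 9 lay at least 1.5-fold lower. The background over all detected genes was 17.0% past 1.5-fold upward and 23.6% past it downward, so both shares of the members, 11.1% and 25%, lay close to or below the background. The median difference (NRF3 minus GFP, log2) of the members was -0.12, beside -0.07 for all detected genes. The differences of the members lay on both sides of 0, 22 below and 14 above, beside 5507 below and 4654 above among the 10162 detected genes. The route, the regulators and the targets are described in turn below.

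**Figure D1:**
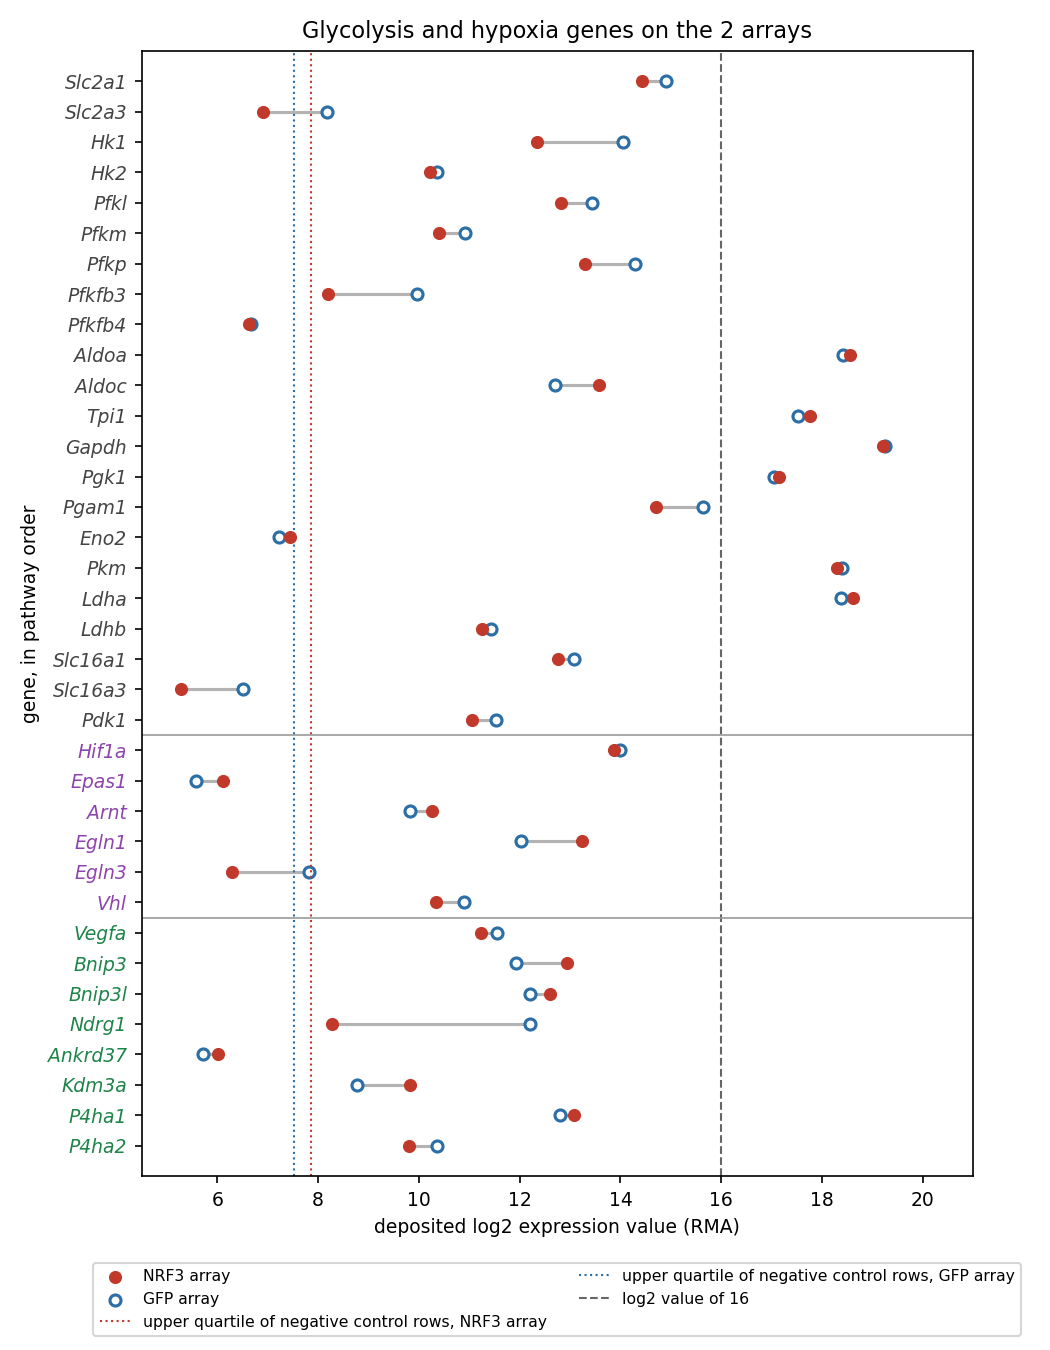
Deposited log2 values (x axis) of the 36 measured members (y axis, in pathway order) on the NRF3 array (filled red) and the GFP array (open blue), 1 array per group. Dotted lines mark the upper quartiles of the negative control rows (7.85 and 7.52) and the dashed line a log2 value of 16. Ndrg1 has the widest gap, and the 6 members right of the dashed line have nearly coinciding points.

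Genes of the glycolytic route lay more often at lower than at higher values in the NRF3 cells. Of 22 measured genes, 7 were at least 1.5-fold lower (31.8%) and 1 was as much higher (4.55%), beside the background of 23.6% and 17.0%. The median difference was -0.26, beside -0.07 for all detected genes. Of the 22, 16 lay below 0, beside 5507 of the 10162 detected genes. Among these 16, Gapdh and Pfkfb4 lay at 0.03 each after median centring. At 2-fold, 4 were lower (Slc2a3, Hk1, Pfkfb3 and Slc16a3) and 0 were higher, against 11.0% and 6.75% of detected genes. Of these 4, Slc2a3 had a dim NRF3 value, and that of Slc16a3 was indistinguishable from the negative control rows.

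At the entrance of the route, both glucose transporters were lower in value in the NRF3 cells. Slc2a1 (GLUT1, the widespread basal transporter) had log2 values of 14.4 on the NRF3 array and 14.9 on the GFP array, a difference of -0.48 that is within 1.5-fold. Slc2a3 (GLUT3, a high-affinity transporter) had 6.90 on the NRF3 array, a dim value, against 8.19 on the GFP array. Its difference of -1.29, or 2.44-fold lower, may therefore depend on background.

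The hexose phase leaned to lower values in the NRF3 cells. All 7 measured genes of hexokinase, phosphofructokinase and its control enzymes had a negative difference on the deposited scale, but Pfkfb4 lay at 0.17 and Hk2 at 0.16 after the median of their chromosomal neighbours was subtracted. The median of the 7 was -0.62, and 4 were at least 1.5-fold lower (57.1%, beside 23.6% of detected genes), in a group set after the values were seen. After that subtraction the median was -0.28 and 3 were 1.5-fold lower, beside a median of 0.007 and 19.1% for detected genes treated alike. Hk1, the hexokinase that most tissues express constantly, lay at 12.3 on the NRF3 array and 14.1 on the GFP array. It was 3.27-fold lower in NRF3 cells, a log2 difference of -1.71, and 2.90% of detected genes had a lower one. Hk2, the inducible hexokinase that HIF raises, lay at 10.2 on the NRF3 array and 10.4 on the GFP array, a difference of -0.13. Within the pair, the Hk1 to Hk2 ratio was 2.98-fold lower in the NRF3 cells.

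Phosphofructokinase, the main control point of the route, has 3 subunit genes. Pfkp, the platelet-type subunit, lay at 13.3 on the NRF3 array and 14.3 on the GFP array, 1.98-fold lower in NRF3 cells. Pfkl, the liver-type subunit, lay at 12.8 on the NRF3 array and 13.4 on the GFP array, a difference of -0.62 just past the 1.5-fold rule. Pfkm, the muscle-type subunit, lay at 10.4 on the NRF3 array and 10.9 on the GFP array, a difference of -0.51 just inside it. All 3 subunits thus had negative differences, and the Pfkp to Pfkm ratio, the most unequal of their pairs, differed by 1.39-fold.

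Of the bifunctional enzymes that make and remove the strongest activator of phosphofructokinase, Pfkfb3, the form with the strongest kinase activity, had the lowest difference of the route. It lay at 8.20 on the NRF3 array and 9.97 on the GFP array, a difference of -1.77, or 3.41-fold lower in NRF3 cells. Its NRF3 value lay just above the upper quartile of the negative control rows there, 7.85. Pfkfb4 was dim on both arrays, at 6.62 on the NRF3 array and 6.66 on the GFP array, so its difference of -0.04 says little about its expression.

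From aldolase to pyruvate kinase the values were centred near 0. Of 8 measured genes 1 passed 1.5-fold upward and 1 downward, and the median was 0.12. Aldoc, the aldolase of brain that HIF also raises, lay at 13.6 on the NRF3 array and 12.7 on the GFP array, 1.84-fold higher in NRF3 cells. It was the only member of the measured route past 1.5-fold upward. Pgam1, the phosphoglycerate mutase, lay at 14.7 on the NRF3 array and 15.6 on the GFP array, 1.92-fold lower. Aldoa, the main aldolase of muscle and most cell lines, lay at 18.6 on the NRF3 array and 18.4 on the GFP array, a difference of 0.13. Gapdh, the enzyme of the oxidation step and a common reference gene, lay at 19.2 on the NRF3 array and 19.3 on the GFP array, a difference of -0.04.

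The remaining differences of this stretch were 0.24 for Tpi1 (triosephosphate isomerase), 0.10 for Pgk1 (phosphoglycerate kinase) and -0.11 for Pkm (pyruvate kinase). Eno2, the neuronal enolase, was dim on both arrays, at 7.45 on the NRF3 array and 7.23 on the GFP array. Signal level moved with the phase of the route: 5 of these 8 genes had a mean above 16, against 0 of 7 in the hexose phase, whose means ran from 6.64 to 13.8. Differences were smaller at that height, since 25.5% of the 165 detected genes with a mean above 16 were past 1.5-fold either way, against 40.8% of the 9997 with a mean up to 16. The part of signal level in the contrast between the phases was not tested.

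**Figure D2:**
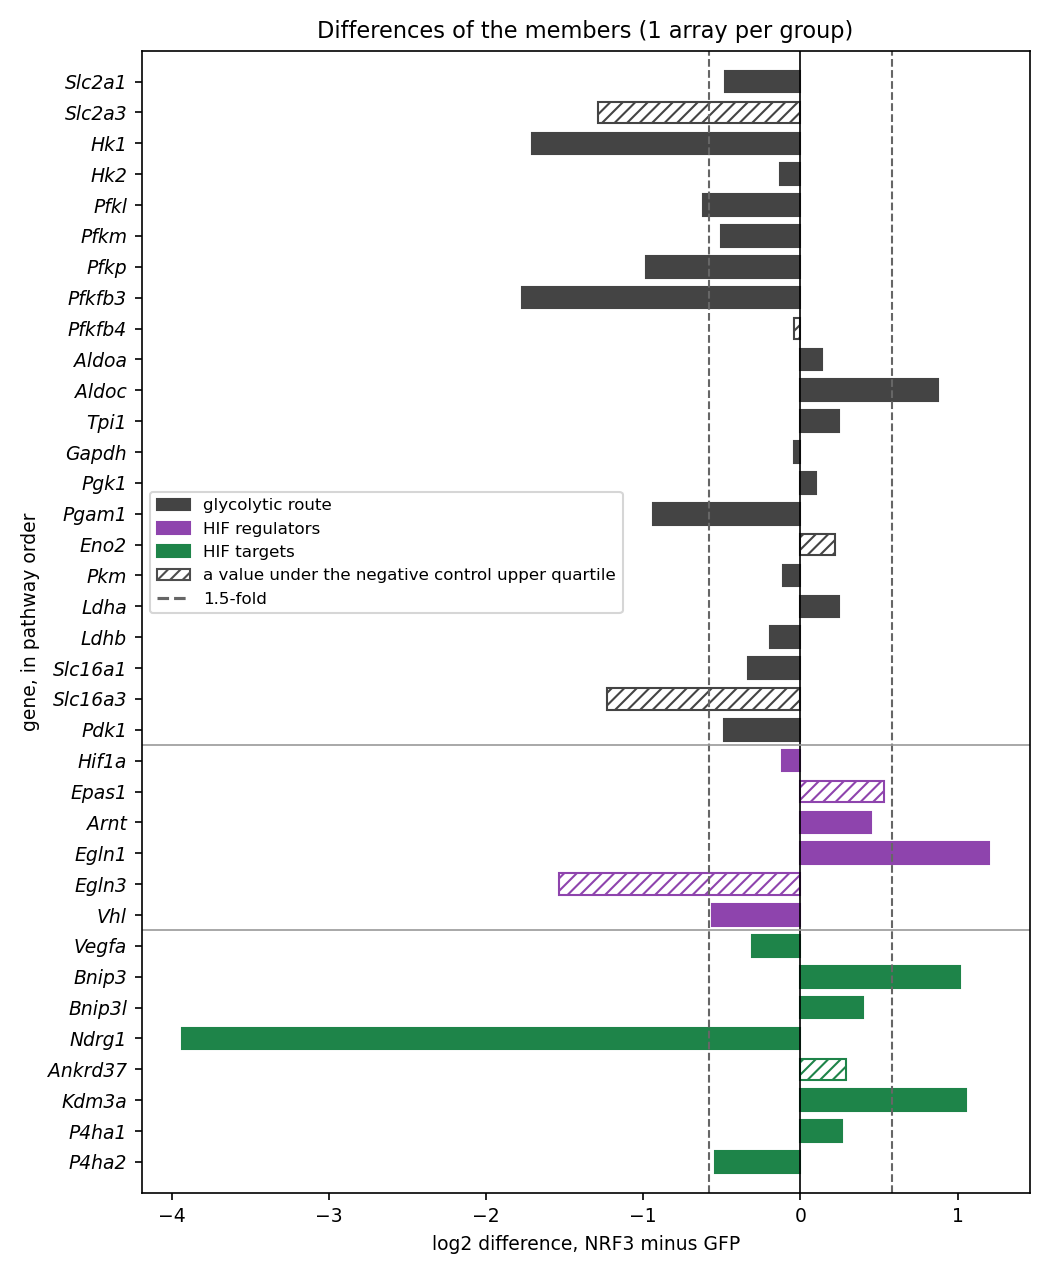
Log2 difference of NRF3 minus GFP (x axis) for each member in pathway order (y axis), coloured by group, with bars starting at 0. Hatched bars have a dim value on at least 1 array and dashed lines mark 1.5-fold. The 7 hexose phase genes from Hk1 to Pfkfb4 all point left on the deposited scale, where Hk2 and Pfkfb4 are near 0, and Aldoc is the only route gene past the right dashed line.

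At the lactate end, Ldha, the subunit that favours lactate formation, lay at 18.6 on the NRF3 array and 18.4 on the GFP array, a difference of 0.25. Ldhb, the subunit that favours the reverse reaction, lay at 11.2 on the NRF3 array and 11.4 on the GFP array, a difference of -0.19. Pdk1, a kinase that inhibits pyruvate dehydrogenase and so limits the conversion of pyruvate to acetyl-CoA, differed by -0.48. None of these 3 reached 1.5-fold. Slc16a1 (MCT1, a lactate transporter) differed by -0.33. Slc16a3 (MCT4, the exporter that HIF raises) lay at 5.29 on the NRF3 array and 6.52 on the GFP array. Its NRF3 value was indistinguishable from the negative control rows and its GFP value dim, so the size of its difference of -1.23 depends on background.

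The regulators of HIF lay on both sides of 0. Of 6 genes, 1 passed 1.5-fold upward and 1 downward, 16.7% each, beside 17.0% and 23.6% of detected genes. Hif1a, the main oxygen-regulated subunit, lay at 13.9 on the NRF3 array and 14.0 on the GFP array, a difference of -0.12. Epas1, which encodes HIF2A, lay at 6.12 on the NRF3 array and 5.59 on the GFP array, both indistinguishable from the negative control rows. Arnt, the constant partner, lay at 10.3 on the NRF3 array and 9.82 on the GFP array, a difference of 0.45. Vhl, the substrate receptor of the ligase that removes HIF alpha, lay at 10.3 on the NRF3 array and 10.9 on the GFP array, a difference of -0.56 that just missed 1.5-fold.

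The 2 prolyl hydroxylase genes lay on opposite sides. Egln1 (PHD2, the main oxygen sensor for HIF1A) lay at 13.2 on the NRF3 array and 12.0 on the GFP array, 2.30-fold higher in NRF3 cells. Egln3 (PHD3, which is itself a strong HIF target) lay at 6.29 on the NRF3 array and 7.82 on the GFP array, a difference of -1.53. Its NRF3 value was indistinguishable from the negative control rows, so that size depends on background.

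Egln1 lies on chromosome 8, whose 549 detected genes had a median difference of 0.56. The log2 difference of Egln1 was 1.20, and the 50 detected genes nearest to it had a median of 0.49. After subtracting that median a log2 difference of 0.71 was left, which is still past 1.5-fold. Its immediate detected neighbours Sprtn and Tsnax differed by 1.27 and 0.48. Next beyond these, Exoc8 differed by 0.67 and Sipa1l2 by 0.26. Over the 5 detected genes on each side, differences ran from -0.34 (Fam89a) to 1.40 (Gnpat). Ankrd37, the other member on this chromosome, differed by less than its own neighbourhood, at 0.29 beside 0.76. Both of its values were indistinguishable from the negative control rows, so its difference says little about its expression. The part of the chromosome in the value of Egln1 was not tested further.

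**Figure D3:**
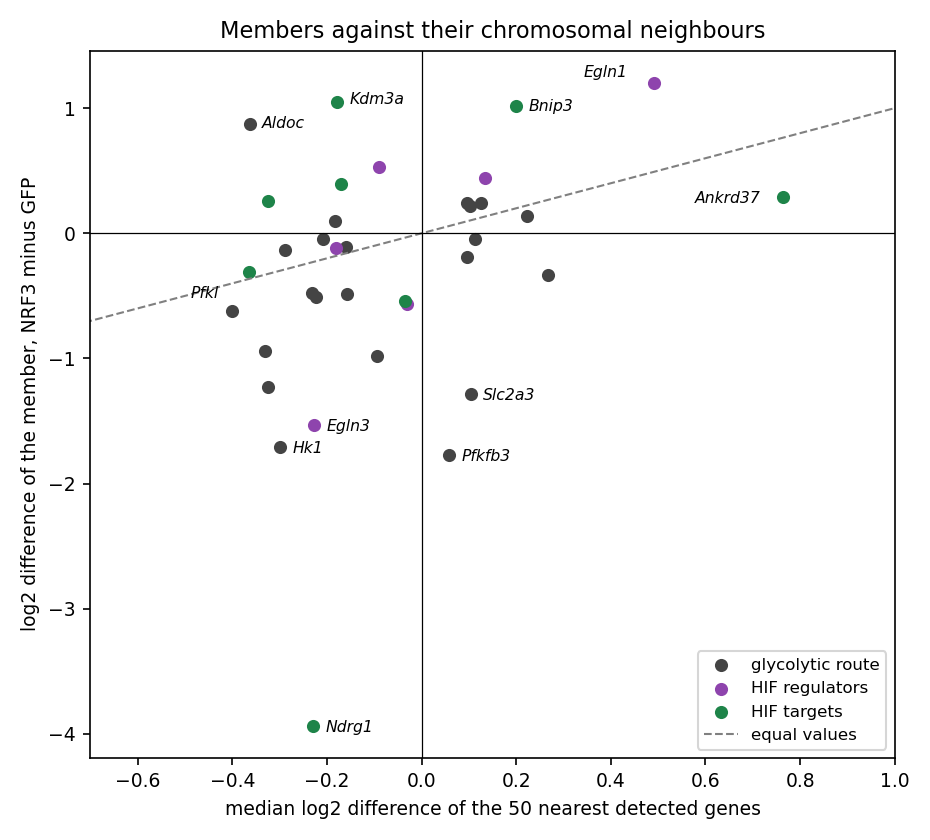
Log2 difference of each member (y axis, NRF3 minus GFP) against the median difference of the 50 detected genes nearest to it on its chromosome (x axis), coloured by group, with the dashed line marking equal values. Egln1 and Ankrd37, both on chromosome 8, lie farthest right, at 0.49 and 0.76, and Ndrg1 lies far below the line.

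The HIF targets outside glycolysis held the largest difference of all the members. Ndrg1, a gene of growth arrest and differentiation that hypoxia strongly induces, lay at 8.27 on the NRF3 array and 12.2 on the GFP array. It was 15.3-fold lower in NRF3 cells, a log2 difference of -3.93, and 23 of the 10162 detected genes had a lower one. Both values lay above the upper quartile of the negative control rows. The 50 nearest detected genes on chromosome 15 had a median of -0.23, so the difference was almost as large, -3.70, after subtracting it. Of its immediate detected neighbours, Ccn4 differed by -1.87 and St3gal1, on the other side, by -0.77. Next beyond these, Tg differed by -2.10 and Zfat by 0.10. Over the 5 detected genes on each side, differences ran from -2.10 (Tg) to 1.40 (Chrac1). The NRF3 values of Ccn4 and Tg, 4.42 and 5.09, were indistinguishable from the negative control rows.

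None of the other 7 targets was 1.5-fold lower. Of the 8 targets, 2 passed 1.5-fold upward (25%) and 1 downward (12.5%), and the median was 0.28, beside 17.0%, 23.6% and -0.07 for detected genes. Kdm3a, a histone H3 lysine demethylase, lay at 9.82 on the NRF3 array and 8.77 on the GFP array, 2.07-fold higher in NRF3 cells. Bnip3, a mitophagy receptor of the outer mitochondrial membrane, lay at 12.9 on the NRF3 array and 11.9 on the GFP array, 2.02-fold higher. Its relative Bnip3l (NIX) lay at 12.6 on the NRF3 array and 12.2 on the GFP array, a difference of 0.40. Both mitophagy receptors were thus higher in value, and Bnip3 was past the rule.

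Vegfa, the angiogenic growth factor most used as a readout of HIF, lay at 11.2 on the NRF3 array and 11.5 on the GFP array, a difference of -0.31. P4ha1 and P4ha2 encode catalytic subunits of collagen prolyl hydroxylase. P4ha1 lay at 13.1 on the NRF3 array and 12.8 on the GFP array, and P4ha2 at 9.81 on the NRF3 array and 10.4 on the GFP array. Their differences, 0.26 and -0.55, had opposite signs and were within 1.5-fold. Ankrd37, an ankyrin repeat protein, lay at 6.01 on the NRF3 array and 5.72 on the GFP array, both indistinguishable from the negative control rows.

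**Figure D4:**
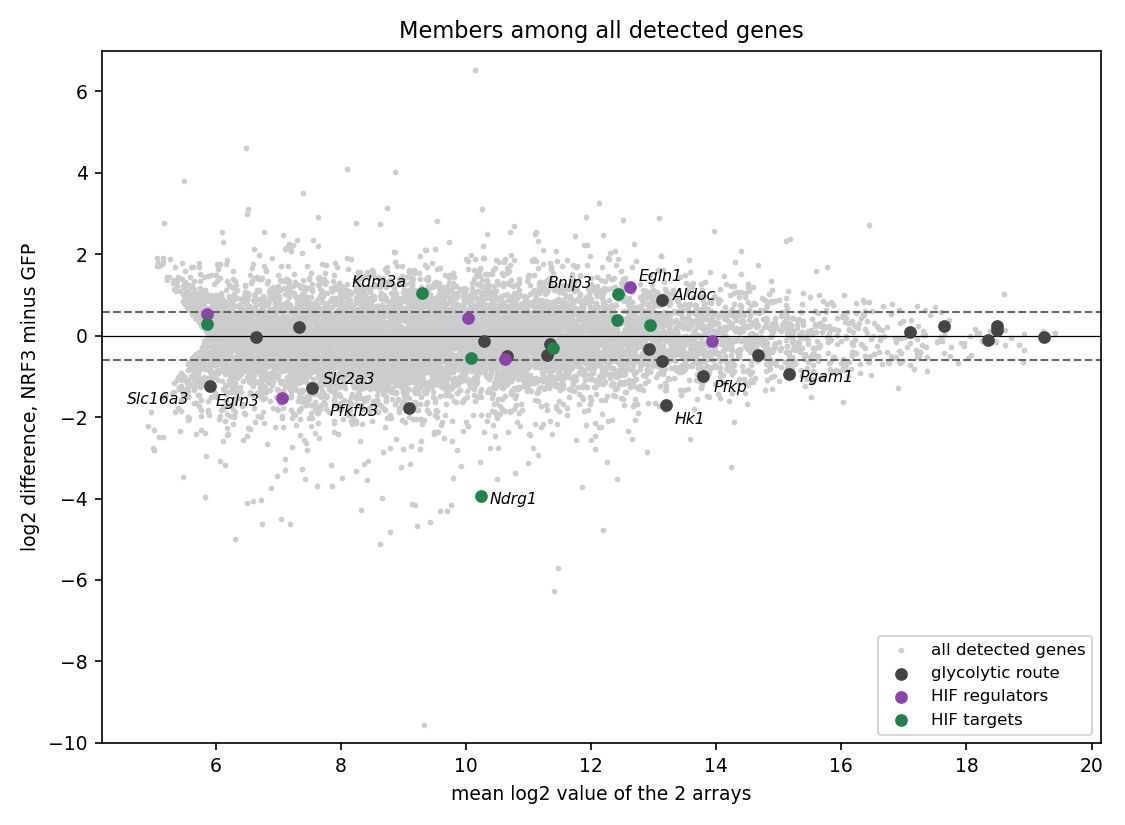
Log2 difference of NRF3 minus GFP (y axis) against the mean log2 value of the 2 arrays (x axis) for the 10162 detected genes (grey) and the 36 members (coloured by group), with dashed lines at 1.5-fold. The members spread through the grey cloud, with Ndrg1 at -3.93 near its lower edge, and the 6 members with a mean above 16 lie close to 0, where the cloud is narrow.

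Genes that share a step were compared by ratio. Levels of different probe sets cannot be compared, but the change of their ratio between the arrays can. Of 13 pairs of related genes, which share some genes, 9 changed their ratio by at least 1.5-fold (69.2%), beside 57.2% of all pairs of detected genes. At 2-fold it was 3 pairs (23.1%), beside 34.1%. Of the 9 pairs, 5 held a gene with a dim value: those of Slc2a3, Pfkfb4, Slc16a3, Epas1 and Egln3, of which the last 3 were indistinguishable from the negative control rows on the NRF3 array. Among the 8 pairs with no dim value, 4 passed 1.5-fold, and 1 passed 2-fold, Hk1 with Hk2. The Slc2a1 to Slc2a3 ratio was 1.75-fold higher in NRF3 cells, with Slc2a3 dim on the NRF3 array. The Aldoc to Aldoa ratio was 1.67-fold higher, with Aldoa above 16. The Ldha to Ldhb ratio was 1.35-fold higher and the Pfkl to Pfkm ratio differed by 1.08-fold.

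Other genes of these pathways were read from lists that hold none of the 36 measured members, and some genes stand in more than 1 list. These lists, too, were chosen with earlier results of these data known. Of 10 detected glycolytic isozymes and sugar transporters outside the set, 0 passed 1.5-fold upward and 4 downward (40%), beside 17.0% and 23.6% of detected genes, and the median was -0.33. The lowest were Eno3, the muscle enolase, at -1.90 with a dim NRF3 value of 6.67, and Slc2a9, a urate carrier of the glucose transporter family, at -1.02 with an NRF3 value of 5.48 that was indistinguishable from the negative control rows. The highest were Tigar, a phosphatase that lowers the activator of phosphofructokinase, at 0.54, and Bpgm, bisphosphoglycerate mutase, at 0.23.

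Among 8 detected pentose phosphate genes 1 was at least 1.5-fold higher (12.5%) and 2 were as much lower (25%), with a median of -0.16. Taldo1 (transaldolase) differed by 1.49 and Pgd (phosphogluconate dehydrogenase) by 0.38, while Pgls (the lactonase) and Prps1 (phosphoribosyl pyrophosphate synthetase) lay at -0.80 and -0.71. Of 15 detected glycogen genes, 4 passed 1.5-fold upward (26.7%) and 1 downward (6.67%), beside 17.0% and 23.6% of detected genes, and the median was 0.33. Of the 4 higher genes, Epm2a, which encodes the glycogen phosphatase laforin, was indistinguishable from the negative control rows on both arrays, at 6.15 on the NRF3 array and 4.76 on the GFP array. Ugp2, which makes UDP-glucose, the glucose donor of glycogen and of glycosylation, lay at 15.2 on the NRF3 array and 12.7 on the GFP array, 5.95-fold higher. Phkb, the beta subunit of phosphorylase kinase, differed by 1.54 and lies on chromosome 8, with a neighbourhood median of 0.57. Phka1, its muscle alpha subunit, differed by -1.15 and Gaa, the lysosomal glucosidase, by -0.46.

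Of 15 further detected regulators of the HIF pathway, 1 passed 1.5-fold upward (6.67%) and 3 downward (20%), and the median was -0.23. Siah2 and Siah1a, ubiquitin ligases that act on prolyl hydroxylases, differed by 0.67 and 0.54, and Siah1a lies on chromosome 8. Cited2, which competes with HIF for its coactivators, differed by -0.84 and Arnt2, a relative of Arnt with a dim NRF3 value of 7.23, by -0.73. Of 39 further detected genes reported to respond to hypoxia or HIF, 5 passed 1.5-fold upward and 7 downward, 12.8% and 17.9%, both below the background. Ccng2 (cyclin G2) and Klhl24, a ubiquitin ligase adaptor, each differed by 1.19. Lgals3, which encodes galectin-3, lay at 9.99 on the NRF3 array and 13.7 on the GFP array, 13.2-fold lower with a difference of -3.72, and Rcor2, a corepressor whose NRF3 value of 5.63 was indistinguishable from the negative control rows, at -1.39. Lgals3 and Ndrg1 thus stood far below their lists, whose medians were -0.13 and 0.28.

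**Figure D5:**
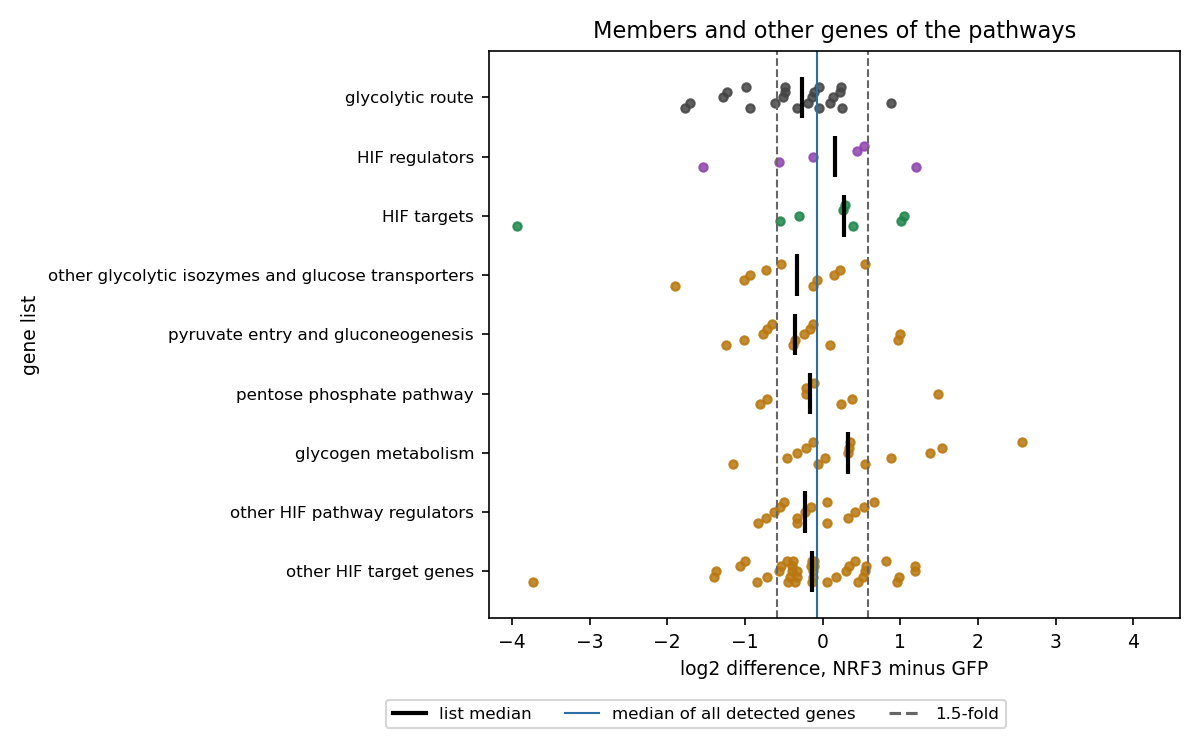
Log2 differences of NRF3 minus GFP (x axis) of the detected genes of each list (y axis), 1 point per gene, with black bars at list medians, a blue line at the median of all detected genes (-0.07) and dashed lines at 1.5-fold. The glycolytic route lies mostly left of 0, the glycogen list has its median at 0.33 with 1 of its 4 higher genes indistinguishable from the negative control rows, and Ndrg1 at -3.93 and Lgals3 at -3.72 lie far to the left of their lists.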

How the data were processed

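Total RNA of 2 cultures of B16F10 cells, NRF3 and GFP, was labelled with biotin and hybridised to 1 single-colour Affymetrix array each. The deposited log2 values were made by the authors with Affymetrix Expression Console and RMA, per the submitters' processing notes. Software versions, RMA settings and the annotation build were not given in the sources used here. The highest deposited values, 19.7 on the NRF3 array and 19.8 on the GFP array, exceed the log2 range of a scanner reading (16 bits), so folds hold on the deposited scale. Arrays have no read depth, and their number limits the precision.

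Probe sets were named through the platform annotation, and chromosomes and gene order came from RefSeq (GRCm38.p6). A gene on more than 1 probe set was read from its brightest one by mean. NRF3 minus GFP was computed with Python 3.11.15, pandas 2.3.3 and statsmodels 0.14.6. Counts use a size rule of 1.5-fold, which is not a test, and the computation was tested on simulated data. All members are named, and of each other list the 2 highest and 2 lowest detected genes. Members and lists were chosen with earlier results of these data known, the phases of the route were set after the values were seen, and further genes were named after their values were seen. Alternatives were the size rule, the floor, centring, quantile normalization, a lowess trend (span 0.3), probe set averaging, chromosomes 1 and 8, neighbour subtraction, levels above 16 and the farthest member.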

Additional observations from a re-analysis of the deposited data

How the results depend on the processing

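With 1 array per group, no replicate could be left out and no p-value could be had. No paired analysis was possible because each group has 1 array. Counts were compared at a factor of 1.5 and medians at 1.5-fold. At 2-fold, the route held 0 higher and 4 lower genes, the hexose phase 2 lower, and the stretch from aldolase to pyruvate kinase 0 higher and 0 lower. Of all detected genes, 6.75% were 2-fold higher and 11.0% were 2-fold lower. The 6 HIF regulators gave the least stable values. With a stricter floor (the 75th percentile of named values, or the negative control upper quartile), 0 of them were lower, because Egln3 fell under the floor. Of all genes above those floors, 24.1% and 24.6% were lower. With chromosomes 1 and 8 left out, 0 regulators were higher, beside 15.8% of the detected genes kept. Their median turned to -0.12, against 0.16 with Egln1 in the list. After median centring or subtraction of neighbouring genes 2 of the 6 were higher, beside 20% and 18.3% of detected genes. Epas1 was the second, with both deposited values indistinguishable from the negative control rows. Without the member farthest from the median, the regulators (without Egln3) and the targets (without Ndrg1) held 0 lower genes, beside 23.6% of detected genes. Of single members, Pfkl lay inside 1.5-fold after centring (-0.54), quantile normalization (-0.57) and neighbour subtraction (-0.22). Slc16a1 (-0.60) and P4ha1 (0.59) passed it after neighbour subtraction. No member past 1.5-fold changed sign under an alternative that kept it. After neighbour subtraction the median of the hexose phase was -0.28, against -0.62 on the deposited scale. Over detected genes these medians were 0.007 and -0.07.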

Other observations

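Pyruvate dehydrogenase, in the mitochondrial matrix, turns pyruvate into acetyl-CoA. Its genes were singled out after their values were seen. All 5 detected subunit genes had negative differences of NRF3 minus GFP, and 4 were at least 1.5-fold lower, beside 23.6% of all detected genes. Pdha1, the catalytic alpha subunit, lay at 8.05 on the NRF3 array and 9.29 on the GFP array, a difference of -1.24. Pdhx, with a dim NRF3 value of 7.70, differed by -0.77, Dlat by -0.72, Dld by -0.65 and Pdhb by -0.36. The phosphatase genes that activate the complex lay on the other side, Pdp1 at 0.997 and Pdp2 at 0.97, but both were dim on both arrays. The GFP value of Pdp1, 6.11, was indistinguishable from the negative control rows. Pdp2 lies on chromosome 8, with a neighbourhood median of 0.86. Mpc1, of the carrier that takes pyruvate into the mitochondrion, differed by -0.16. Over the 13 detected genes of pyruvate entry and gluconeogenesis, 2 passed 1.5-fold upward (15.4%) and 5 downward (38.5%), beside 17.0% and 23.6% of all detected genes, and the median was -0.36. Slc37a4, the glucose-6-phosphate carrier of the endoplasmic reticulum, differed by -1.01.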
